A study of Mus musculus with 45 samples.

Results

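The genes described here are 33 genes of the enteric nervous system, the network of neurons and glia in the gut wall, out of 50600 gene identifiers in the deposited tables. They were chosen by name as genes of neurons and glia: 24 mark neurons or what neurons make, 6 mark glia, and 3 are shared by neurons, glia or other cells. RNA was sequenced in bulk from the distal colon of mice, so a value is a mean over many cell types. A lower value in such bulk RNA cannot be told apart between fewer cells of a type, less RNA per cell and more RNA from other cells. In the first cohort, 8 libraries came from wild-type mice with no treatment, and 3 groups came from mice with the Il10 gene knocked out. Il10 encodes interleukin 10, an anti-inflammatory cytokine, and mice without it develop colitis. Of these knockout libraries 10 were given vehicle, 9 compound 13 at 30 mg/kg and 7 compound 13 at 10 mg/kg. By the series title the compound blocks GPR4, a proton-sensing receptor, with selectivity. A second cohort, labelled D77, held knockout mice only, with 5 libraries given vehicle and 5 given an antibody to p40, the subunit shared by interleukins 12 and 23. Every treated or vehicle group thus carried the deletion, the wild type had no vehicle, and the D77 cohort had no wild type. What the deletion did and what the vehicle did therefore cannot be told apart. The labels give no age, sex or strain. They name no animal for a library either, and if libraries share animals the p-values reflect a spread that may be technical. The title and the treatment field of 1 further knockout library disagreed on the dose, and it entered no comparison.

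Library totals ran from 22682495 to 36279786 counts over the 45 libraries. Il10 had 10 counts over the 8 wild-type libraries and 0 in all 37 knockout libraries. All 33 genes had counts in every wild-type library. Levels across groups are given in CPM, the count of a gene relative to the library total as scaled by the TMM method over all 45 libraries, as mean ± SD over the 8, 10, 9, 7, 5 and 5 libraries of the groups in the order above. Levels between genes are compared only in TPM, which corrects for transcript length. The cohorts had separate count tables, and a level set across them can differ by cohort as well as by group, which cannot be told apart. Differences are log2 fold changes ± SE, and adjusted p-values are from the quasi-likelihood test of edgeR with Benjamini-Hochberg adjustment over all genes tested. A gene was called higher or lower at an adjusted p under 0.05.

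Enteric neurons lie in the myenteric plexus between the muscle layers and in the submucosal plexus beneath the mucosa, and their glia lie around them and reach into the mucosa. Neurons and glia descend from neural crest cells that express Sox10 and Ret, and GDNF acting on the receptors GFRA1 and RET, endothelin 3 acting on EDNRB and neuregulin acting on ERBB3 steer that lineage. Inhibitory motor neurons release nitric oxide, made by the enzyme of Nos1, together with vasoactive intestinal peptide. Excitatory motor neurons release acetylcholine, made by the enzyme of Chat, together with the tachykinins encoded by Tac1.

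Upstream sequences are shown for the 4 genes whose windows held a cyclic AMP response element, the site at which CREB-family factors bind: the granin gene Scg2, the peptide genes Cartpt and Vip, and the crest gene Foxd3. Windows of the 250 bases before the RefSeq start site on GRCm38.p6 were found for 23 of the 33 genes, 28 windows in all. Sequences run 5′ to 3′ on the gene's strand, and capitals mark TGACGTCA, or TGACGTC where the last base differed. Exons of other GENCODE transcripts of the same gene covered 94 of the 250 bases for Scg2 and 250 for Cartpt. For these 2 genes 30 bases around the element are printed, and the element lay inside such an exon in both. No exon of the gene covered the windows of Vip and Foxd3.
Vip chr10:5638968-5639217 (plus strand): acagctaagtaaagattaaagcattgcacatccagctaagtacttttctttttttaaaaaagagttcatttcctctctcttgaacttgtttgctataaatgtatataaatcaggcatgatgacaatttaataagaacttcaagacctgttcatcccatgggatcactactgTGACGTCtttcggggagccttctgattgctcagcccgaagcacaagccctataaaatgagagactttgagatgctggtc
Foxd3 chr4:99656049-99656298 (plus strand): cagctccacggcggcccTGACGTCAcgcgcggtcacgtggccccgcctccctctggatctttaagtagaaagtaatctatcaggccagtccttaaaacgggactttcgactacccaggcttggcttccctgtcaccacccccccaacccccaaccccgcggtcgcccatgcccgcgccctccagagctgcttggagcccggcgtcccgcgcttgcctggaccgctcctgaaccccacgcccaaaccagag
Scg2 chr1:79440076-79440105 (minus strand): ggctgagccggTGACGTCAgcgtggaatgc
Cartpt chr13:99900777-99900806 (minus strand): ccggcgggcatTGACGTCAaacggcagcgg

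Searched on both strands, TGACGTCA occurred in the windows of Scg2, Cartpt and Foxd3, with its first base at -68, -112 and -233 from the start site. It occurred in 1.55% of all 32851 RefSeq windows of this length. The shorter TGACGTC, which overlaps it, occurred also in the Vip window, at -79, and in 2.78% of all windows. TATAAA occurred in the windows of Elavl3, Prph and Vip and in 12.4% of all windows. TTCAGCACC, the core of the element bound by the neuronal repressor REST, occurred in none of the windows of these genes and in 0.301% of all. A match describes the letters in the window and says nothing about binding in these samples.

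In wild-type colon the highest of the 33 genes per length was Erbb3, the neuregulin receptor carried by glia and also by gut epithelium, at 128 ± 15.5 TPM. The neuropeptide precursors Vip and Tac1 followed at 48.7 ± 10.3 and 46.0 ± 7.02 TPM, and then Uchl1, the ubiquitin hydrolase PGP9.5 of neurons, at 39.1 ± 12.8 TPM. Vip, Tac1 and Uchl1 did not differ beyond their spread. The adhesion molecule L1cam stood at 30.5 ± 4.58 TPM, and the intermediate filament peripherin (Prph) at 21.0 ± 4.45 TPM. Next came the opioid precursor Penk at 17.0 ± 4.58 TPM, the granin Scg2 at 17.0 ± 3.36, Stmn2 at 15.5 ± 2.42 and the galanin precursor Gal at 15.2 ± 4.21, again neighbours within their spread. The glial genes other than Erbb3 were low, with Gfap at 3.03 ± 0.666 TPM, S100b at 2.47 ± 0.848, Sox10 at 1.83 ± 0.552 and Cdh19 at 1.69 ± 0.499. The lowest were Foxd3 at 0.738 ± 0.510 and Chat at 0.421 ± 0.178 TPM. Defining genes of neurons and of glia were thus present in every wild-type library.

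**Figure D1:**
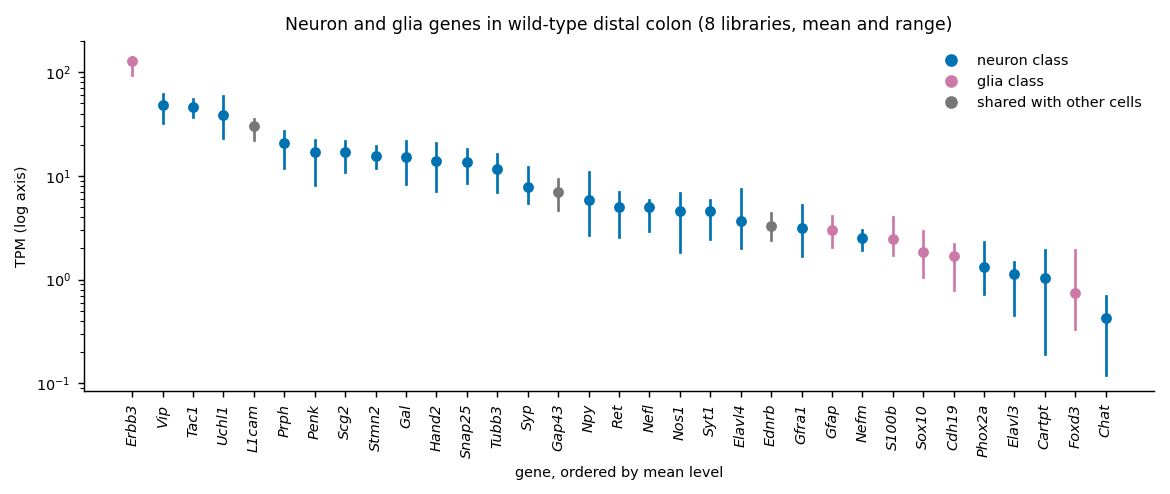
Wild-type levels of the 33 genes in TPM on a log axis, ordered by mean; points are means of 8 libraries and bars run from the lowest to the highest library, coloured by class. Erbb3 is highest at 128 TPM and Chat lowest at 0.421 TPM, and the other glial genes lie in the lower part of the order.

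Most neuron and glia genes were lower in vehicle-treated knockout colon than in wild-type colon. Of the 32 genes tested 21 were called lower and 0 higher, while over all 16435 genes 24.1% were called lower and 25.2% higher. In the neuron class 14 of 23 were lower, with a median difference of -1.07. Among glial genes 5 of 6 were lower, with a median of -1.35, and of the shared genes 2 of 3. The median over all genes was -0.01. Largest were the differences of Sox10, the master regulator of the crest lineage, at -1.87 ± 0.54, and of Npy, the neuropeptide Y precursor, at -1.80 ± 0.48. Not called were Foxd3, Elavl4, Phox2a, Hand2, Syp, Nos1, Chat, Tac1, Gal, Ret and L1cam, and Cartpt was too low to be tested. In TPM all 33 genes had a lower mean in knockout vehicle than in wild type, and in CPM 31 did, with Tac1 and L1cam the exceptions. TPM was shifted lower over all genes too. Limma on log2(TPM + 1) called 6093 of all genes lower and 2192 higher, with a median of -0.16. Smooth muscle markers moved with the neuron and glia genes: 10 of 10 were lower, with a median of -1.28. The count of called genes ran from 15 without wild-type replicate 4 to 28 without knockout vehicle replicate 3 or 8. It was 11 where all 4 groups of the first cohort shared the estimate of spread, and 25 in DESeq2.

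Colon given compound 13 was also set against wild type. With 30 mg/kg 2 of 33 genes were called lower and 0 higher, beside 13.8% lower and 19.6% higher of all 17370 genes. The 2 were Ret and Ednrb. Another 8 genes reached an unadjusted p under 0.05, so that 10 did in all, and the median over the 33 was -0.91. The count depended on the fit, since 17 were lower where only these 2 groups were fitted and 4 in DESeq2. In limma on log2(TPM + 1) it was 26, beside 6488 lower and 1182 higher over all genes. With all 4 groups fitted in edgeR, the count was 4 without the 30 mg/kg replicate 9. It was 1 without wild-type replicate 3, 4, 5 or 7 or 30 mg/kg replicate 1, 3, 4 or 8. With 10 mg/kg 26 of 33 were called lower and 0 higher, beside 24.3% lower and 24.0% higher of all genes. Of the neuron class 20 of 24 were lower, with a median of -1.74, and of the glial genes 5 of 6, with a median of -2.38. Smooth muscle markers were lower in 1 of 10 at 30 mg/kg (median -0.998) and in 10 of 10 at 10 mg/kg (median -2.17). These comparisons and the one before share the 8 wild-type libraries.

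Set against vehicle within the knockout, neither dose changed any of the genes by the test. For 30 mg/kg 0 of 31 were called, none had an unadjusted p under 0.05, and 0.0% of all 16948 genes were called. The median over the 31 genes was 0.19, with single genes from -0.37 to 0.83. For 10 mg/kg 0 of 31 were called beside 0.0118% of all genes, and only Ret had an unadjusted p under 0.05. The median was -0.70, with single genes from -1.24 to 0.61. DESeq2 and limma called 0 of these genes at either dose too. The 2 doses share the 10 vehicle libraries. For Sox10 the difference at 10 mg/kg was -1.02 ± 0.96, so that this depth and spread leave room for sizeable differences either way. A p above the threshold does not show that the groups were alike.

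Anti-p40 in the D77 cohort went with higher neuron and glia genes. Of the 32 genes tested 16 were called higher and 1 lower, beside 8.35% higher and 8.32% lower of all 16470 genes. In the neuron class 13 of 23 were higher and 1, Tac1, was lower, with a median of 1.05. Of the glial genes 2 of 6 were higher, Gfap and Erbb3, with a median over the 6 of 0.95, and of the shared genes Gap43. Of the vesicle genes 4 of 4 were higher, and of the structural genes 6 of 8. Smooth muscle markers moved with them, with 7 of 10 higher and a median of 1.12. Leukocyte markers were lower in 4 of 8. Without anti-p40 replicate 2, whose neuron genes were the highest of its group, 10 genes were called higher. The call of Tac1 was lost without D77 vehicle replicate 2 or 3 or anti-p40 replicate 1, 4 or 5.

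The anti-p40 effect was also set against the 30 mg/kg effect, each relative to the vehicle of its own cohort. None of the 33 genes differed in edgeR, beside 1.65% of all 18021 genes, and none had an unadjusted p under 0.05. The median of the difference was 0.82 over the 33 genes and 0.04 over all genes. DESeq2 and limma called none of the 33 either. An effect called under anti-p40 and not under the compound was therefore not shown to differ between the treatments.

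**Figure D2:**
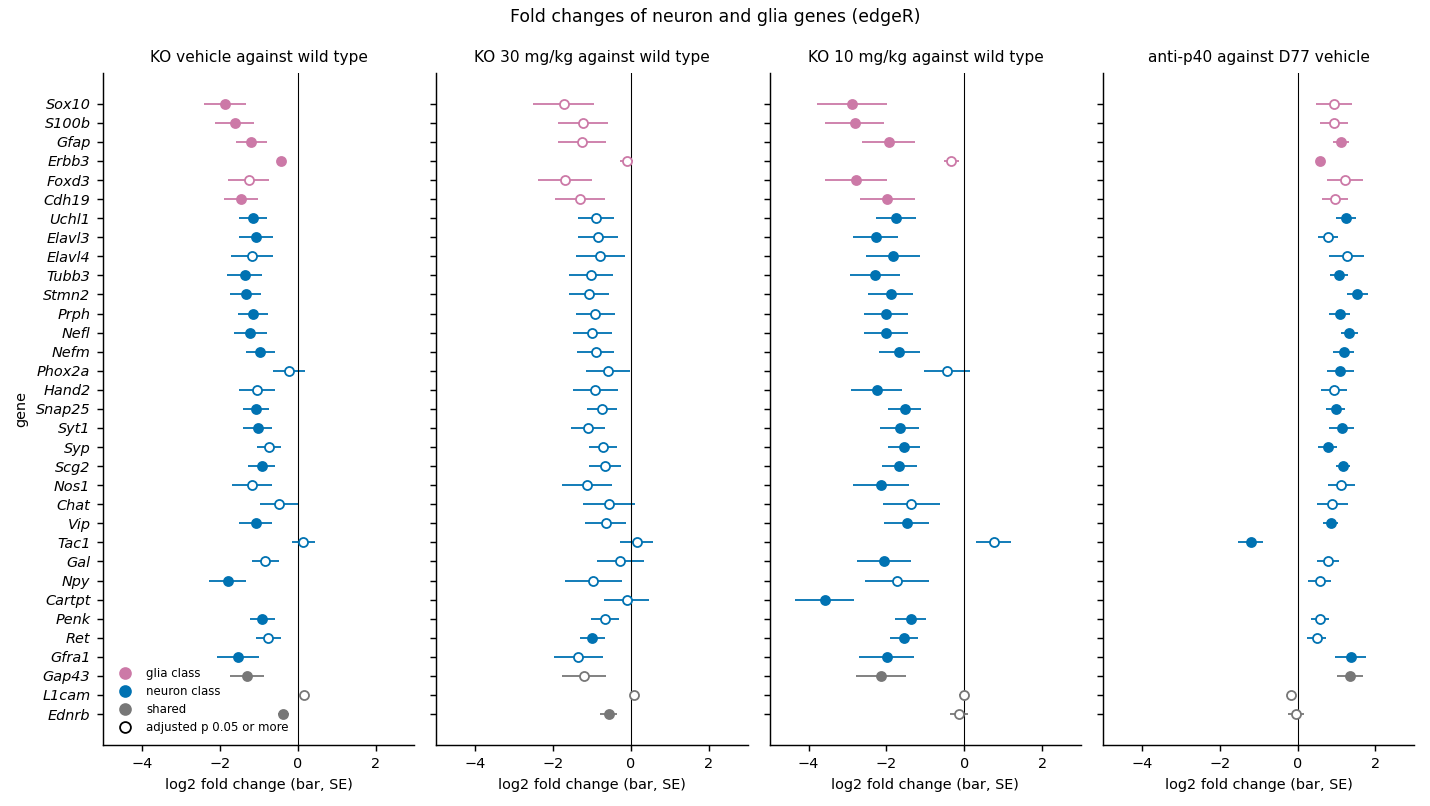
Log2 fold changes of the 33 genes in edgeR, in panels for the 3 comparisons with wild type and for anti-p40 against D77 vehicle, with bars for the SE; filled points were called at an adjusted p under 0.05 and open points were not. The 21 calls in knockout vehicle and the 26 at 10 mg/kg lie left of 0, 2 points are filled at 30 mg/kg against wild type, and 16 of the 17 calls with anti-p40 lie right of 0.

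Among the glial genes, Sox10 (ENSMUSG00000033006, chromosome 15, 79154908 to 79165240, minus strand, GRCm38) encodes the transcription factor that keeps crest and glial identity. Its lowest, median and highest libraries stood at 1.84, 3.01 and 5.14 CPM in wild type, 0.0393, 0.653 and 3.76 in knockout vehicle, 0, 0.602 and 3.19 at 30 mg/kg and 0, 0.180 and 2.14 at 10 mg/kg. The knockout groups overlapped wild type through a single library in each case of vehicle, 30 mg/kg and 10 mg/kg. In D77 vehicle the 5 libraries held 1.34, 1.31, 0.198, 1.09 and 1.199 CPM, and with anti-p40 1.15, 3.62, 1.36, 2.33 and 1.37. D77 vehicle replicate 3 was far below the other vehicle libraries and anti-p40 replicate 2 was the highest, and the groups overlapped. Sox10 was 3.65-fold lower in knockout vehicle, a difference of -1.87 ± 0.54 (adjusted p = 0.00878), and 7.37-fold lower at 10 mg/kg, -2.88 ± 0.90 (adjusted p = 0.00921). Single libraries carried weight here, as the differences were -2.56 without knockout vehicle replicate 3 and -4.73 without 10 mg/kg replicate 3. With anti-p40 the difference was 0.93 ± 0.45 (adjusted p = 0.175).

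S100b, a calcium-binding protein of glia, stood at 2.10 ± 0.766 CPM in wild type, 0.683 ± 0.628 in knockout vehicle, 0.882 ± 0.792 at 30 mg/kg, 0.287 ± 0.257 at 10 mg/kg, 0.629 ± 0.290 in D77 vehicle and 1.21 ± 0.228 with anti-p40. It was lower, with a difference of -1.62 ± 0.50 (adjusted p = 0.0132) in knockout vehicle and by -2.82 ± 0.76 (adjusted p = 0.00300) at 10 mg/kg, where every library lay below the lowest wild-type library. S100b overlaps Dip2a on the opposite strand, and whether counting used strand is not given in the sources used here, so that reads of the overlap cannot be told apart. Gfap (ENSMUSG00000020932, chromosome 11, 102887336 to 102900912, minus strand), the glial intermediate filament, had 3.52, 4.57 and 6.195 CPM (lowest, median, highest) in wild type, 0.317, 1.77 and 4.52 in knockout vehicle, 0.323, 2.29 and 3.598 at 30 mg/kg and 0, 0.664 and 4.26 at 10 mg/kg. The wild-type and knockout ranges met in a few high knockout libraries. Its differences were -1.19 ± 0.39 (adjusted p = 0.0187) in knockout vehicle and -1.94 ± 0.68 (adjusted p = 0.0190) at 10 mg/kg, and the latter was -2.72 without 10 mg/kg replicate 3. The 5 D77 vehicle libraries held 2.89, 2.31, 1.58, 2.18 and 2.68 CPM of Gfap and the 5 anti-p40 libraries 5.06, 6.08, 4.30, 3.84 and 5.78. Every anti-p40 library was above every vehicle library, and Gfap rose by 1.11 ± 0.21 (adjusted p = 0.00601), or 2.15-fold.

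Erbb3 was the most abundant of the glial genes. Its libraries held 401, 517 and 585 CPM (lowest, median, highest) in wild type, 280.1, 399 and 501 in knockout vehicle, 292, 499 and 802 at 30 mg/kg and 273, 430.4 and 614 at 10 mg/kg. All 10 knockout vehicle libraries lay below the wild-type mean, and the ranges overlapped. Erbb3 was lower, with a difference of -0.42 ± 0.11 (adjusted p = 0.00397) in knockout vehicle and was not called at either dose. The D77 vehicle libraries held 305, 275, 312, 351 and 375 CPM and the anti-p40 libraries 422, 447, 528, 535 and 487, with no overlap. The rise with anti-p40 was 0.58 ± 0.11 (adjusted p = 0.00587). Epithelial markers moved the other way in knockout vehicle, with 7 of 8 higher (25.2% of all genes), and 0 were higher (8.35%) and 1 lower (8.32%) with anti-p40. Their part in the Erbb3 result was not tested.

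Foxd3, a transcription factor of the crest, was at the edge of detection, at 1.06 ± 0.747 CPM in wild type, 0.437 ± 0.534 in knockout vehicle, 0.322 ± 0.281 at 30 mg/kg, 0.141 ± 0.233 at 10 mg/kg, 0.568 ± 0.412 in D77 vehicle and 1.31 ± 0.446 with anti-p40. It was called only at 10 mg/kg against wild type, -2.78 ± 0.80 (adjusted p = 0.00505), and this difference was -3.92 without 10 mg/kg replicate 5. Cdh19, a cadherin of crest-derived glia, stood at 4.02 ± 1.25 CPM in wild type, 1.48 ± 1.25 in knockout vehicle, 1.62 ± 1.28 at 30 mg/kg, 0.994 ± 1.19 at 10 mg/kg, 1.04 ± 0.437 in D77 vehicle and 2.02 ± 0.622 with anti-p40. Its differences were -1.45 ± 0.44 (adjusted p = 0.0112) in knockout vehicle and -1.98 ± 0.71 (adjusted p = 0.0225) at 10 mg/kg, or -2.57 without 10 mg/kg replicate 5. Both genes had higher means with anti-p40 than with D77 vehicle, with adjusted p = 0.0914 for Foxd3 and 0.0676 for Cdh19.

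Of the 8 structural and RNA-binding genes of neurons 7 were lower in knockout vehicle and 8 at 10 mg/kg, and 6 were higher with anti-p40. Uchl1 (ENSMUSG00000029223, chromosome 5, 66676091 to 66687234, plus strand) had 14.2, 20.5 and 25.7 CPM (lowest, median, highest) in wild type, 1.86, 8.73 and 21.1 in knockout vehicle, 2.55, 12.5 and 22.02 at 30 mg/kg and 0.890, 5.73 and 12.6 at 10 mg/kg. At 10 mg/kg all libraries lay below the lowest wild-type library in CPM, though in TPM 10 mg/kg replicate 6, at 31.7, lay within the wild-type range, while knockout vehicle and 30 mg/kg reached into the wild-type range. Uchl1 was 2.22-fold lower in knockout vehicle, -1.15 ± 0.35 (adjusted p = 0.0126), and 3.37-fold lower at 10 mg/kg, -1.75 ± 0.51 (adjusted p = 0.00588). In D77 vehicle the libraries held 7.57, 9.31, 3.20, 9.71 and 8.47 CPM and with anti-p40 17.7, 23.7, 13.2, 19.4 and 16.1. The 2 groups did not overlap, and the rise was 1.24 ± 0.26 (adjusted p = 0.0105). A long antisense gene, Uchl1os, overlaps Uchl1.

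Tubb3, the neuronal beta-tubulin, stood at 12.9 ± 3.20 CPM in wild type, 5.07 ± 4.54 in knockout vehicle, 6.27 ± 3.83 at 30 mg/kg, 2.59 ± 2.62 at 10 mg/kg, 4.95 ± 1.43 in D77 vehicle and 10.3 ± 2.54 with anti-p40. It was lower, with a difference of -1.36 ± 0.45 (adjusted p = 0.0199) in knockout vehicle and -2.29 ± 0.64 (adjusted p = 0.00426) at 10 mg/kg and higher by 1.05 ± 0.23 (adjusted p = 0.0128) with anti-p40. Stmn2, a microtubule regulator of growing axons, had the largest rise with anti-p40 of all 33 genes, 1.53 ± 0.27 (adjusted p = 0.00429), or 2.89-fold. Stmn2 levels were 19.4 ± 2.73 CPM in wild type, 7.72 ± 7.05 in knockout vehicle, 9.14 ± 5.86 at 30 mg/kg, 5.17 ± 5.34 at 10 mg/kg, 5.47 ± 1.93 in D77 vehicle and 15.7 ± 3.68 with anti-p40, and it was lower, with a difference of -1.34 ± 0.41 (adjusted p = 0.0119) in knockout vehicle and -1.89 ± 0.58 (adjusted p = 0.00863) at 10 mg/kg. The Hu proteins encoded by Elavl3 and Elavl4 bind RNA in nearly all neurons. Elavl3 stood at 3.52 ± 1.23 CPM in wild type, 1.68 ± 1.42 in knockout vehicle, 1.95 ± 1.14 at 30 mg/kg, 0.709 ± 0.609 at 10 mg/kg, 1.54 ± 0.406 in D77 vehicle and 2.63 ± 0.689 with anti-p40, and Elavl4 at 7.08 ± 1.19 CPM in wild type, 3.15 ± 3.46 in knockout vehicle, 4.08 ± 2.54 at 30 mg/kg, 1.94 ± 2.15 at 10 mg/kg, 1.67 ± 0.923 in D77 vehicle and 3.98 ± 1.47 with anti-p40. Elavl3 was lower, with a difference of -1.07 ± 0.43 (adjusted p = 0.0462) in knockout vehicle, a call lost in 14 of 18 fits that left out 1 library (adjusted p up to 0.0780), and by -2.28 ± 0.58 (adjusted p = 0.00202) at 10 mg/kg. Elavl4 was called at 10 mg/kg only, -1.83 ± 0.70 (adjusted p = 0.0316), which was lost without 10 mg/kg replicate 1, 2, 4, 6 or 7 (adjusted p up to 0.0647).

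All 3 neuronal intermediate filament genes were called in knockout vehicle, at 10 mg/kg and with anti-p40. Prph, found in peripheral neurons, stood at 22.1 ± 4.64 CPM in wild type, 10.0 ± 7.82 in knockout vehicle, 11.6 ± 7.10 at 30 mg/kg, 5.41 ± 5.03 at 10 mg/kg, 7.61 ± 2.72 in D77 vehicle and 16.0 ± 3.85 with anti-p40. Its differences were -1.15 ± 0.39 (adjusted p = 0.0210), -2.01 ± 0.56 (adjusted p = 0.00424) and 1.08 ± 0.26 (adjusted p = 0.0186) in that order of comparisons. Nefl and Nefm, the light and medium neurofilaments, overlap on opposite strands of chromosome 14, so that their reads may not be separable. Nefl stood at 10.8 ± 2.09 CPM in wild type, 4.68 ± 4.29 in knockout vehicle, 5.43 ± 3.25 at 30 mg/kg, 2.64 ± 2.52 at 10 mg/kg, 3.14 ± 0.866 in D77 vehicle and 7.88 ± 1.82 with anti-p40, and Nefm at 5.40 ± 0.844 CPM in wild type, 2.78 ± 2.09 in knockout vehicle, 2.87 ± 1.34 at 30 mg/kg, 1.69 ± 1.24 at 10 mg/kg, 2.17 ± 0.552 in D77 vehicle and 4.95 ± 1.47 with anti-p40. Nefl differed by -1.22 ± 0.43 (adjusted p = 0.0260), -2.01 ± 0.56 (adjusted p = 0.00419) and 1.33 ± 0.23 (adjusted p = 0.00386), and Nefm by -0.97 ± 0.37 (adjusted p = 0.0381), -1.67 ± 0.52 (adjusted p = 0.00952) and 1.19 ± 0.27 (adjusted p = 0.0153). The call of Nefm in knockout vehicle was lost in 11 of 18 fits without 1 library (adjusted p up to 0.0647).

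Of the 2 transcription factors of autonomic neurons, none was called in knockout vehicle and 1 each at 10 mg/kg and with anti-p40. Phox2a, which drives noradrenergic and autonomic identity, stood at 1.24 ± 0.405 CPM in wild type, 1.06 ± 0.881 in knockout vehicle, 0.812 ± 0.647 at 30 mg/kg, 0.903 ± 0.859 at 10 mg/kg, 0.988 ± 0.418 in D77 vehicle and 2.09 ± 0.766 with anti-p40. It was called with anti-p40 only, 1.09 ± 0.34 (adjusted p = 0.0495), and that call was lost in 9 of 10 fits without 1 library (adjusted p up to 0.124). Hand2, needed for the maturation of enteric neurons, stood at 20.2 ± 5.55 CPM in wild type, 9.84 ± 8.84 in knockout vehicle, 10.7 ± 6.89 at 30 mg/kg, 4.17 ± 4.46 at 10 mg/kg, 7.86 ± 3.27 in D77 vehicle and 15.0 ± 4.85 with anti-p40. It was called at 10 mg/kg only, -2.25 ± 0.65 (adjusted p = 0.00534). In knockout vehicle Hand2 differed by -1.05 ± 0.47 (adjusted p = 0.0690). Both overlap a gene on the opposite strand, Inppl1 for Phox2a and Hand2os1 for Hand2.

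Vesicle genes gave 3 calls of 4 in knockout vehicle and 4 of 4 both at 10 mg/kg and with anti-p40. Snap25, a SNARE protein of the nerve terminal, stood at 13.3 ± 2.62 CPM in wild type, 6.38 ± 4.64 in knockout vehicle, 7.92 ± 3.87 at 30 mg/kg, 4.56 ± 3.08 at 10 mg/kg, 4.57 ± 1.36 in D77 vehicle and 8.97 ± 2.42 with anti-p40. Its differences were -1.07 ± 0.34 (adjusted p = 0.0148) in knockout vehicle, -1.53 ± 0.43 (adjusted p = 0.00400) at 10 mg/kg and 0.98 ± 0.24 (adjusted p = 0.0200) with anti-p40, the last lost without anti-p40 replicate 2 (adjusted p = 0.0504). Syt1, the calcium sensor of release, stood at 14.1 ± 3.16 CPM in wild type, 6.97 ± 5.53 in knockout vehicle, 6.55 ± 3.95 at 30 mg/kg, 4.41 ± 3.82 at 10 mg/kg, 4.33 ± 1.78 in D77 vehicle and 9.44 ± 2.71 with anti-p40. Syt1 differed by -1.03 ± 0.38 (adjusted p = 0.0300), -1.66 ± 0.49 (adjusted p = 0.00667) and 1.13 ± 0.32 (adjusted p = 0.0344). Its call in knockout vehicle was lost without wild-type replicate 4 (adjusted p = 0.0569) or knockout vehicle replicate 4 (adjusted p = 0.0509), and that with anti-p40 in 5 of 10 fits (adjusted p up to 0.0895). Syp, synaptophysin of the vesicle membrane, stood at 11.3 ± 2.18 CPM in wild type, 6.77 ± 4.11 in knockout vehicle, 6.83 ± 3.74 at 30 mg/kg, 3.84 ± 2.22 at 10 mg/kg, 5.24 ± 1.29 in D77 vehicle and 8.93 ± 2.80 with anti-p40 and was not called in knockout vehicle. It differed by -1.55 ± 0.40 (adjusted p = 0.00237) at 10 mg/kg and 0.77 ± 0.24 (adjusted p = 0.0459) with anti-p40, a call lost in 8 of 10 fits (adjusted p up to 0.113).

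Scg2, the granin whose element is printed above, is a protein of dense-core granules. Its libraries held 16.3, 23.6 and 33.9 CPM (lowest, median, highest) in wild type, 2.98, 10.4 and 32.7 in knockout vehicle, 5.76, 18.2 and 27.5 at 30 mg/kg and 2.57, 5.24 and 18.6 at 10 mg/kg. Scg2 was lower, with a difference of -0.93 ± 0.34 (adjusted p = 0.0315) in knockout vehicle, lost in 5 of 18 fits (adjusted p up to 0.0586), and by -1.67 ± 0.45 (adjusted p = 0.00309) at 10 mg/kg. D77 vehicle held 9.36, 9.83, 5.97, 10.7 and 8.34 CPM and anti-p40 16.0, 27.5, 17.8, 18.3 and 18.7. No vehicle library reached the lowest anti-p40 library, and the rise was 1.16 ± 0.18 (adjusted p = 0.00260), the smallest adjusted p among the 33 genes in that comparison.

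Of the inhibitory transmitter genes, Vip (ENSMUSG00000019772, chromosome 10, 5639218 to 5647617, plus strand), whose upstream window is printed above, had over 28.9, 44.3 and 55.8 CPM (lowest, median, highest) in wild type, 2.54, 13.5 and 58.1 in knockout vehicle, 6.195, 27.0 and 52.0 at 30 mg/kg and 3.51, 7.06 and 46.3 at 10 mg/kg. Knockout vehicle spanned the whole wild-type range and lay on both sides of it. Vip was lower, with a difference of -1.08 ± 0.42 (adjusted p = 0.0424) in knockout vehicle and by -1.48 ± 0.57 (adjusted p = 0.0329) at 10 mg/kg. These calls were lost in 12 of 18 and in 6 of 15 fits without 1 library (adjusted p up to 0.0743 and 0.0706), and the second difference was -2.08 without 10 mg/kg replicate 3. D77 vehicle libraries held 17.5, 18.9, 11.2, 20.0 and 14.8 CPM and anti-p40 libraries 21.4, 41.7, 26.0, 29.0 and 30.6. The groups did not overlap, and Vip rose by 0.86 ± 0.19 (adjusted p = 0.0134). Nos1, the neuronal nitric oxide synthase, stood at 28.5 ± 8.31 CPM in wild type, 12.7 ± 12.8 in knockout vehicle, 13.1 ± 8.48 at 30 mg/kg, 6.32 ± 7.51 at 10 mg/kg, 7.49 ± 3.43 in D77 vehicle and 16.3 ± 5.63 with anti-p40. Nos1 was called at 10 mg/kg only, -2.14 ± 0.72 (adjusted p = 0.0155), and differed by -1.17 ± 0.52 (adjusted p = 0.0667) in knockout vehicle and 1.13 ± 0.36 (adjusted p = 0.0519) with anti-p40.

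Gal, the galanin precursor, stood at 4.59 ± 1.21 CPM in wild type, 2.60 ± 1.73 in knockout vehicle, 3.77 ± 2.67 at 30 mg/kg, 1.07 ± 1.39 at 10 mg/kg, 2.13 ± 0.942 in D77 vehicle and 3.65 ± 0.856 with anti-p40. It was called at 10 mg/kg only, -2.06 ± 0.68 (adjusted p = 0.0136), or -2.96 without 10 mg/kg replicate 5. Npy had 0.520, 1.05 and 2.11 CPM (lowest, median, highest) in wild type, 0.0397, 0.240 and 0.988 in knockout vehicle, 0.0719, 0.625 and 1.96 at 30 mg/kg and 0, 0 and 1.66 at 10 mg/kg, and 0.503 ± 0.129 in D77 vehicle and 0.738 ± 0.216 with anti-p40. Npy was 3.48-fold lower in knockout vehicle, -1.80 ± 0.48 (adjusted p = 0.00537), with all 10 libraries below the wild-type mean. At 10 mg/kg it was not called, -1.74 ± 0.82 (adjusted p = 0.0766), with 10 mg/kg replicates 1 and 3 inside the wild-type range. Penk, the enkephalin precursor, stood at 12.04 ± 3.19 CPM in wild type, 6.46 ± 4.02 in knockout vehicle, 7.55 ± 3.698 at 30 mg/kg, 4.60 ± 2.15 at 10 mg/kg, 7.77 ± 1.82 in D77 vehicle and 11.6 ± 3.90 with anti-p40. Penk was lower, with a difference of -0.91 ± 0.31 (adjusted p = 0.0238) in knockout vehicle and -1.38 ± 0.39 (adjusted p = 0.00439) at 10 mg/kg, and with anti-p40 its difference was 0.58 ± 0.24 (adjusted p = 0.116).

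Cartpt (ENSMUSG00000021647, chromosome 13, 99898489 to 99901091, minus strand) encodes the CART peptide of some enteric neurons and holds the element printed above. It was counted in few reads, with 2 to 22 per wild-type library and 93 in all 8. At 10 mg/kg, 6 of 7 libraries had 0 counts and replicate 3 had 7. Its levels were 0.434 ± 0.277 CPM in wild type, 0.228 ± 0.148 in knockout vehicle, 0.400 ± 0.251 at 30 mg/kg, 0.0261 ± 0.0691 at 10 mg/kg, 0.307 ± 0.0956 in D77 vehicle and 0.296 ± 0.116 with anti-p40. Cartpt was called lower at 10 mg/kg, -3.59 ± 0.76 (adjusted p = 0.000320). Without replicate 3, taking 3 counts over the other 6 libraries as the most that 0 allows, it was at least 27.5-fold lower than wild type. This bound covers counting error only. It was not called at 30 mg/kg with a difference of -0.11 ± 0.57 (adjusted p = 0.895) and was too low to be tested in knockout vehicle, against vehicle and with anti-p40.

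Among the excitatory transmitter genes Chat, the choline acetyltransferase of cholinergic neurons, had the lowest TPM and was called in no comparison. Its levels were 0.742 ± 0.303 CPM in wild type, 0.535 ± 0.384 in knockout vehicle, 0.494 ± 0.391 at 30 mg/kg, 0.280 ± 0.323 at 10 mg/kg, 0.285 ± 0.128 in D77 vehicle and 0.515 ± 0.183 with anti-p40. Slc18a3, the vesicular acetylcholine transporter, lies within Chat on the same strand. Tac1 (ENSMUSG00000061762, chromosome 6, 7554879 to 7565834, plus strand), the tachykinin precursor, was the 1 gene of the 33 called lower with anti-p40. It had 16.6, 21.5 and 27.3 CPM (lowest, median, highest) in wild type, 11.1, 18.1 and 75.0 in knockout vehicle, 8.01, 21.4 and 47.9 at 30 mg/kg and 11.4, 13.3 and 107 at 10 mg/kg. Knockout groups thus reached both below and above wild type, with 0.15 ± 0.30 (adjusted p = 0.701) in knockout vehicle and 0.75 ± 0.44 (adjusted p = 0.157) at 10 mg/kg. The sign in knockout vehicle rested on replicate 2, at 75.0 CPM, without which edgeR gave -0.26 ± 0.15 (adjusted p = 0.153). In D77 vehicle Tac1 held 22.4, 58.5, 70.5, 37.6 and 20.8 CPM and with anti-p40 14.5, 23.0, 20.1, 17.7 and 15.2. Vehicle replicates 2 and 3 were the highest, and the groups met at their edges. Tac1 was 2.31-fold lower with anti-p40, -1.21 ± 0.32 (adjusted p = 0.0275), and with D77 vehicle replicate 3 left out the difference was -0.95 (adjusted p = 0.0502). It was not called in limma on TPM or without a filter on low counts. Tachykinins are also made outside neurons, in enteroendocrine and immune cells. Here leukocyte markers were lower in 4 of 8 with anti-p40 (8.32% of all genes) and enteroendocrine markers higher in 2 of 9 (8.35%). Their part in the Tac1 result was not tested.

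**Figure D3:**
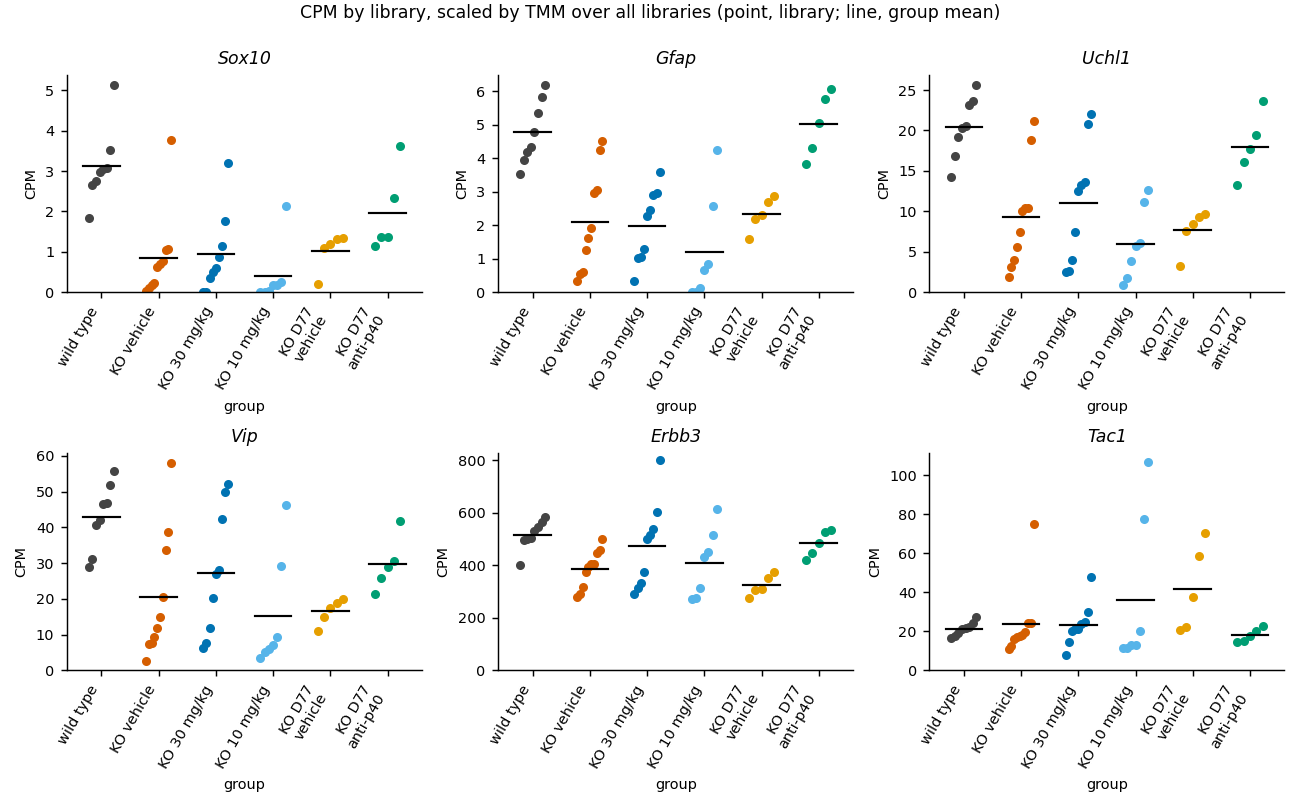
CPM of Sox10, Gfap, Uchl1, Vip, Erbb3 and Tac1 in the libraries of the 6 groups, with a point for each library and a line at the group mean. Knockout libraries spread from near 0 up into the wild-type range for Sox10, Gfap, Uchl1 and Vip, while the highest Tac1 libraries are in knockout groups, up to 106.5 CPM at 10 mg/kg.

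The GDNF receptors are the entry point of the signal that sustains enteric neurons. Ret, the receptor tyrosine kinase, had 8.71, 16.1 and 23.9 CPM (lowest, median, highest) in wild type, 2.59, 7.44 and 24.9 in knockout vehicle, 3.43, 8.11 and 11.8 at 30 mg/kg and 2.79, 5.19 and 10.8 at 10 mg/kg, with 8.85 ± 2.698 in D77 vehicle and 12.4 ± 4.13 with anti-p40. A single knockout vehicle library lay above all wild-type libraries, and none did at either dose. Ret was lower at 30 mg/kg, -0.99 ± 0.33 (adjusted p = 0.0195), and at 10 mg/kg, -1.56 ± 0.36 (adjusted p = 0.000846). The call at 30 mg/kg held in all 17 fits that left out 1 library. In knockout vehicle Ret was not called, -0.75 ± 0.33 (adjusted p = 0.0622), and at 10 mg/kg against vehicle it differed by -0.81 ± 0.37 (unadjusted p = 0.0383, adjusted p = 0.422). At 30 mg/kg against vehicle the 2 GDNF receptor genes lay between -0.24 and 0.19, with 0 at an unadjusted p under 0.05. Knockout vehicle was fitted with wild type alone and the doses with all 4 groups, so these calls against wild type rest on unlike estimates of spread. Gfra1, the co-receptor that binds GDNF, stood at 7.39 ± 1.69 CPM in wild type, 2.55 ± 2.67 in knockout vehicle, 2.89 ± 1.92 at 30 mg/kg, 1.81 ± 2.27 at 10 mg/kg, 1.71 ± 0.828 in D77 vehicle and 4.38 ± 1.15 with anti-p40. It was lower, with a difference of -1.54 ± 0.54 (adjusted p = 0.0239) in knockout vehicle and -1.999 ± 0.70 (adjusted p = 0.0197) at 10 mg/kg, or -2.76 without 10 mg/kg replicate 3. With anti-p40 Gfra1 was higher by 1.36 ± 0.40 (adjusted p = 0.0378), a call lost in 7 of 10 fits (adjusted p up to 0.0927).

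Of the 3 genes shared by neurons, glia and other cells, Gap43, a growth-cone protein of neurons and glia, stood at 5.62 ± 1.203 CPM in wild type, 2.29 ± 1.95 in knockout vehicle, 2.41 ± 1.62 at 30 mg/kg, 1.25 ± 1.06 at 10 mg/kg, 1.62 ± 0.686 in D77 vehicle and 4.09 ± 1.27 with anti-p40. It was lower, with a difference of -1.30 ± 0.44 (adjusted p = 0.0204) in knockout vehicle and -2.14 ± 0.63 (adjusted p = 0.00613) at 10 mg/kg and higher by 1.34 ± 0.34 (adjusted p = 0.0218) with anti-p40, the last lost without anti-p40 replicate 2 (adjusted p = 0.0580). Ednrb, the endothelin receptor of the crest that endothelial and muscle cells also carry, stood at 8.43 ± 1.67 CPM in wild type, 6.54 ± 1.44 in knockout vehicle, 5.65 ± 2.05 at 30 mg/kg, 7.66 ± 3.02 at 10 mg/kg, 7.35 ± 1.81 in D77 vehicle and 7.13 ± 1.61 with anti-p40. Ednrb was lower, with a difference of -0.37 ± 0.14 (adjusted p = 0.0390) in knockout vehicle and -0.57 ± 0.22 (adjusted p = 0.0433) at 30 mg/kg, calls lost in 10 of 18 and 10 of 17 fits (adjusted p up to 0.0926 and 0.0894). L1cam, an axonal adhesion molecule that other cells also make, stood at 71.4 ± 7.91 CPM in wild type, 80.3 ± 8.54 in knockout vehicle, 75.6 ± 11.5 at 30 mg/kg, 71.4 ± 19.2 at 10 mg/kg, 81.7 ± 8.97 in D77 vehicle and 72.7 ± 4.17 with anti-p40 and was called in no comparison. Protein-coding genes on the same strand overlap L1cam (Arhgap4), Tubb3 (Gm20388), Elavl3 (Gm49318) and Syt1 (Gm5136). Reads of these overlaps may not be separable.

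Neurons and glia were compared by their counts, medians and library means, with no test. Both classes had negative medians in knockout vehicle and at both doses against wild type, and positive medians with anti-p40. The median of the glial genes was below that of the neuron genes in knockout vehicle (-1.35 against -1.07), at 30 mg/kg against wild type (-1.28 against -0.87) and at 10 mg/kg (-2.38 against -1.74). With anti-p40 the medians were 0.95 and 1.05. The mean log2(CPM + 1) over the 24 neuron genes of a library lay between 2.82 and 3.66 in wild type, between 1.34 and 3.66 in knockout vehicle, between 1.46 and 3.29 at 30 mg/kg and between 0.999 and 2.81 at 10 mg/kg. Over the 6 glial genes it lay between 2.75 and 3.42, between 1.57 and 3.08, between 1.53 and 2.77 and between 1.46 and 2.47. Erbb3, which gut epithelium also carries, weighed most in this glial mean. In wild type Erbb3 averaged 516 CPM, while the other glial genes averaged between 1.06 and 4.77 CPM. In the D77 cohort the neuron mean lay between 1.86 and 2.60 in vehicle and between 2.84 and 3.45 with anti-p40, and the glial mean between 1.80 and 2.41 and between 2.65 and 3.11, in neither case with overlap. Knockout vehicle replicates 3 and 8 were the highest of their group in both classes, and replicate 2 was the lowest in both.

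The neuron mean less the glial mean, a difference on the log2(CPM + 1) scale, was 0.27 ± 0.11 in wild type, 0.14 ± 0.33 in knockout vehicle, 0.28 ± 0.31 at 30 mg/kg and -0.05 ± 0.30 at 10 mg/kg. It was 0.08 ± 0.13 in D77 vehicle and 0.19 ± 0.09 with anti-p40. These groups overlapped. Knockout vehicle less wild type came to -0.13, and to 0.16 on log2(TPM + 0.1), so that the sign of the difference between the classes depended on the scale.

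**Figure D4:**
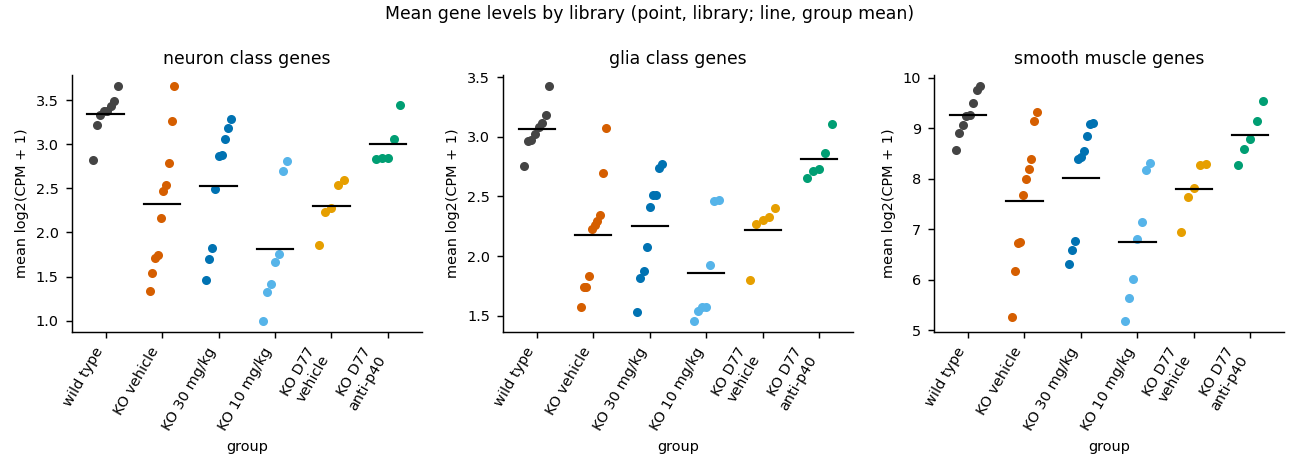
Mean log2(CPM + 1) of the neuron class, the glia class and the smooth muscle markers in each library of the 6 groups, with a line at the group mean. In each panel wild-type and anti-p40 libraries are high, the knockout groups of the first cohort spread widely downward, and 10 mg/kg has the lowest mean, 1.81, 1.86 and 6.75 in the 3 panels.

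Since the ganglia lie between the muscle layers, the smooth muscle markers were followed in the same libraries. Their mean log2(CPM + 1) over 10 genes lay between 8.57 and 9.83 in wild type, between 5.27 and 9.32 in knockout vehicle, between 6.32 and 9.11 at 30 mg/kg, between 5.19 and 8.31 at 10 mg/kg, between 6.94 and 8.29 in D77 vehicle and between 8.26 and 9.55 with anti-p40. No marker was at 0 in any library, the lowest value being 3.81 CPM of Lmod1. Within groups the neuron gene Uchl1 followed the smooth muscle actin Acta2 closely. In wild type they gave r = 0.906 (permutation p = 0.00223, adjusted 0.00595) and rho = 0.905 (permutation p = 0.00456, adjusted 0.0146) over 8 libraries. In knockout vehicle they gave r = 0.972 (permutation p = 1.00e-05, adjusted 0.000160) and rho = 0.952 (permutation p = 0.000160, adjusted 0.00256) over 10 libraries, the first being the smallest p that the permutations can give. At 30 mg/kg the values were r = 0.961 (permutation p = 0.000193, adjusted 0.00154) and rho = 0.917 (permutation p = 0.00131, adjusted 0.00700) over 9 libraries, and at 10 mg/kg r = 0.977 (permutation p = 0.000397, adjusted 0.00203) and rho = 1.0 (permutation p = 0.000397, adjusted 0.00317) over 7. Without the 2 libraries farthest from the median r was 0.827, 0.942, 0.914 and 0.996, in the same order. The libraries of a group share scaling and depth range, all values are log2(CPM + 1), p-values are two-sided and exact except for knockout vehicle, and adjusted values are over the 16 relations computed. These relations were not planned and were added after the data were seen.

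The glial gene Sox10 was set against Acta2 in the same way. In wild type they gave r = 0.727 (permutation p = 0.0370, adjusted 0.0493) and rho = 0.810 (permutation p = 0.0218, adjusted 0.0348), a relation that rested on the 2 libraries farthest from the median, without which r was 0.413. In knockout vehicle they gave r = 0.806 (permutation p = 0.00418, adjusted 0.00955) and rho = 0.806 (permutation p = 0.00685, adjusted 0.0183), at 30 mg/kg r = 0.777 (permutation p = 0.0133, adjusted 0.0213) and rho = 0.686 (permutation p = 0.0475, adjusted 0.0633) and at 10 mg/kg r = 0.772 (permutation p = 0.00159, adjusted 0.00508) and rho = 0.901 (permutation p = 0.00952, adjusted 0.0188). Uchl1 and Sox10 gave r = 0.810, 0.768, 0.899 and 0.680 with rho = 0.714, 0.782, 0.879 and 0.901 in these 4 groups. Their permutation p-values for r were 0.0158, 0.00599, 0.000507 and 0.0556 (adjusted 0.0229, 0.0120, 0.00203 and 0.0684). For rho they were 0.0576, 0.0106, 0.00340 and 0.00952 (adjusted 0.0709, 0.0188, 0.0136 and 0.0188). In wild type r was 0.274 without the 2 farthest libraries. Tac1 and Acta2, a pair likewise chosen after the values were seen, gave r = 0.859 (permutation p = 0.00789, adjusted 0.0140) and rho = 0.786 (permutation p = 0.0279, adjusted 0.0406) in wild type. In the knockout groups r was -0.505, -0.0260 and -0.438 with permutation p of 0.136, 0.944 and 0.318, and rho was -0.248, -0.117 and -0.464 with permutation p of 0.492, 0.776 and 0.302.

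With the smooth muscle mean of each library as a covariate, edgeR called 0 of 32 genes in knockout vehicle against wild type, with 1 at an unadjusted p under 0.05. The median over the 32 was -0.02, that of neuron genes 0.02 and that of glial genes -0.26. Over all 16435 genes 1218 were called higher and 840 lower, against 4147 and 3965 without the covariate. For 30 mg/kg 0 of 33 were called and 1 had an unadjusted p under 0.05. Over all 17370 genes 2102 were higher and 1151 lower there, against 3398 and 2398 without the covariate. For 10 mg/kg 1 of 33, Cartpt, was called (-2.70, adjusted p = 0.0290). Over all 17370 genes 1099 were higher and 509 lower there, against 4169 and 4229 without the covariate. With anti-p40 0 of 32 were called, with 5 at an unadjusted p under 0.05 and a median of 0.25. Over all 16470 genes 93 were called higher and 109 lower, against 1375 and 1370 without the covariate. Calls were thus lost over the whole table too, and not only among the neuron and glia genes. The covariate itself differed between the groups, by the ranges above. DESeq2 and limma were not run with the covariate.

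**Figure D5:**
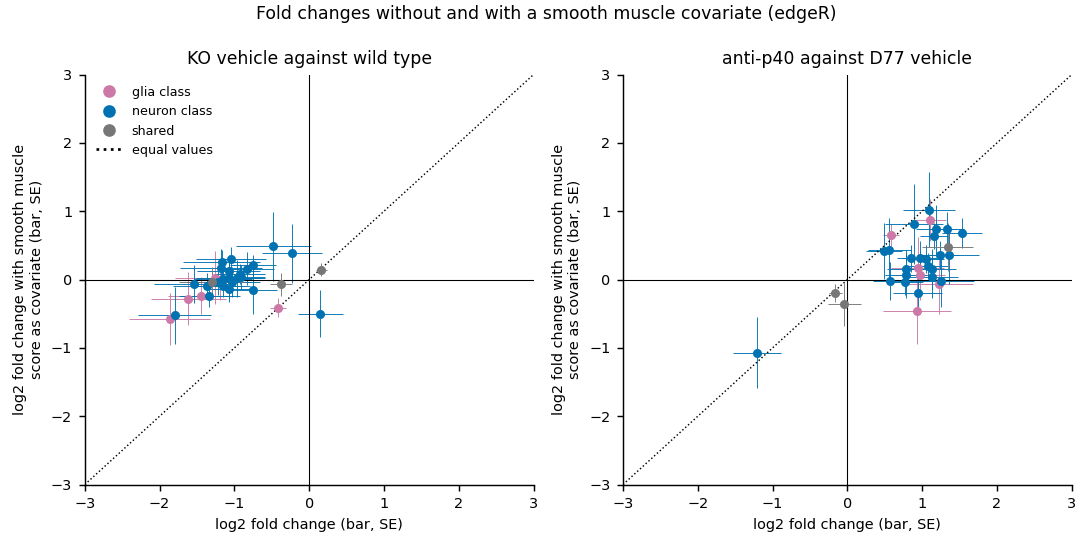
Log2 fold changes of the genes without (x axis) and with (y axis) the smooth muscle mean as a covariate, for knockout vehicle against wild type and anti-p40 against D77 vehicle, with SE bars and a dotted line of equal values. In the left panel the points shift from a median of -1.08 to -0.02, and in the right panel from 0.97 to 0.25.

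Other genes of the signals that act on this lineage were looked at as a list of 17 ligands and receptors of the GDNF, endothelin, neuregulin and neurotrophin families. In knockout vehicle 2 were higher and 5 lower of 15 tested, beside 25.2% higher and 24.1% lower of all genes. Erbb2, the partner of ERBB3, differed by -0.46 ± 0.09 (adjusted p = 0.000797), the ligand gene Edn1 by -2.13 ± 0.47 (adjusted p = 0.00142) and the neuregulin gene Nrg1 by 1.66 ± 0.37 (adjusted p = 0.00164). At 30 mg/kg 1 was higher and 2 lower of 16, beside 19.6% and 13.8% of all genes, with the GDNF-family receptor Gfra2 at -1.03 ± 0.29 (adjusted p = 0.00686), Edn1 at -1.68 ± 0.52 (adjusted p = 0.0139) and Edn3, the ligand of EDNRB in the crest, at 1.04 ± 0.33 (adjusted p = 0.0155). With 10 mg/kg 2 were higher and 7 lower of 16, beside 24.0% and 24.3%, among them Edn1 at -2.34 ± 0.59 (adjusted p = 0.00181), Erbb2 at -0.53 ± 0.15 (adjusted p = 0.00524) and Edn3 at 1.18 ± 0.35 (adjusted p = 0.00637). With anti-p40 2 of 15 were higher, beside 8.35% of all genes, Edn1 by 1.66 ± 0.30 (adjusted p = 0.00479) and Erbb2 by 0.47 ± 0.15 (adjusted p = 0.0465). So few genes, at shares near those of all genes in knockout vehicle and at 30 mg/kg, are no result about the list. Against vehicle 0 of 16 were called at either dose, with 0 at an unadjusted p under 0.05.

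A list of 37 further neural genes of the gut was counted in the same comparisons. Which cells of the wall made their RNA was not tested. In knockout vehicle 12 of 32 were lower and 0 higher, beside 24.1% lower of all genes, with a median of -0.92; these included Ddc, the decarboxylase of amine synthesis, at -0.89 ± 0.20 (adjusted p = 0.00199), Gng3 at -1.11 ± 0.34 (adjusted p = 0.0118) and the microtubule protein gene Map1b at -1.22 ± 0.37 (adjusted p = 0.0120). The count was 24 without knockout vehicle replicate 3. With 30 mg/kg 4 of 33 were lower, a share close to the 13.8% of all genes, with Ddc at -0.80 ± 0.20 (adjusted p = 0.00275), Tbx3 at -0.71 ± 0.23 (adjusted p = 0.0187) and the vesicular monoamine transporter Slc18a2 at -0.64 ± 0.22 (adjusted p = 0.0211). A larger count, 22 of 33, was lower at 10 mg/kg, beside 24.3% of all genes, with Ddc at -1.07 ± 0.22 (adjusted p = 0.000236), Slc18a2 at -1.13 ± 0.24 (adjusted p = 0.000276) and the tau gene Mapt at -0.86 ± 0.20 (adjusted p = 0.000997). With anti-p40 19 of 31 were higher and 0 lower, beside 8.35% higher of all genes, led by the peptide genes Grp at 2.45 ± 0.27 (adjusted p = 0.000422) and Nmu at 2.78 ± 0.35 (adjusted p = 0.000871), with Ddc at 0.89 ± 0.15 (adjusted p = 0.00332).

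Calls among markers of other cells in the wall were as follows. In knockout vehicle leukocyte markers were higher in 8 of 8, epithelial in 7 of 8, and lower were fibroblast markers in 5 of 7, endothelial in 4 of 8 and those of the interstitial cells of Cajal, the pacemaker cells of the muscle, in 2 of 3. Enteroendocrine markers split, 2 higher and 2 lower of 10, as did those of Schwann cells and myelin, 2 higher and 1 lower of 4, and 1 of 6 tuft cell markers was higher. Over all genes 25.2% were higher and 24.1% lower. The enteroendocrine, Schwann and tuft counts were too few or too near these shares to be a result about those cells. At 30 mg/kg against wild type epithelial markers were higher in 7 of 8 and leukocyte markers in 4 of 8. Fibroblast markers were lower there in 5 of 7, endothelial in 2 of 8 and Cajal in 0 of 3. Enteroendocrine markers were higher in 2 of 10, tuft in 1 of 6 and Schwann and myelin in 1 of 4. Over all genes 19.6% were higher and 13.8% lower at that dose. Such endothelial, enteroendocrine, tuft and Schwann counts are too few to be a result. Against wild type at 10 mg/kg leukocyte markers were higher in 8 of 8, epithelial in 8 of 8, and lower were fibroblast markers in 5 of 7, Cajal in 2 of 3 and endothelial in 1 of 8. Over all genes 24.0% were higher and 24.3% lower there, so that the endothelial count lay below the share of all genes. With anti-p40 no fibroblast, Cajal, tuft or Schwann and myelin marker was called, 1 of 8 endothelial markers was higher and leukocyte markers were lower in 4 of 8. Over all genes 8.35% were higher and 8.32% lower, so that the single endothelial call is no result about those cells. The leukocyte mean log2(CPM + 1) lay between 4.35 and 5.05 in wild type, between 5.45 and 6.95 in knockout vehicle, between 5.78 and 6.45 in D77 vehicle and between 5.01 and 5.60 with anti-p40. The part of these cells in the neuron and glia results was not tested.

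The authors' deposited table of knockout vehicle against control listed all 33 genes, of which 25 were lower and 0 higher, beside 4324 lower and 4694 higher of 18520 genes. For anti-p40 the authors' deposited table gave 23 higher and 1 lower of the 33, beside 1938 higher and 1991 lower of 20535 genes. The authors' deposited tables for compound 13 against vehicle had 0 of the 33 significant at either dose.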

How the data were processed

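RNA from distal colon was enriched for poly A and sequenced, per the labels' protocols. Reads were trimmed, aligned and quantified with cutadapt 3.7, STAR 2.7.8a and RSEM 1.3.3 on mm10, and DESeq2 1.30.1 is named too, per the submitters' processing notes. Which annotation and strand setting were used is not given in the sources used here. Both deposited table kinds hold per-gene values, namely estimated counts (17.1% and 20.4% of values above 0 were not whole in the first and the D77 cohort, to a tolerance of 1e-6) and TPM. The authors' deposited comparison tables hold log2 fold changes and adjusted p-values. Of 50600 identifiers 50376 matched a symbol. The closest pair of libraries of a group had a chi-square per degree of freedom of 7.72 over 150 pairs, so none was treated as a duplicate.

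Estimated counts were rounded, filtered with filterByExpr, scaled by TMM and tested with edgeR 4.0.16 (R 4.3.3), the robust quasi-likelihood test and Benjamini-Hochberg adjustment over all genes tested. Knockout vehicle and wild type were fitted alone, both doses against wild type in 1 fit of the 4 first-cohort groups, both doses against vehicle in 1 fit of the 3 knockout groups, anti-p40 against D77 vehicle alone, and the difference of effects in 1 fit of 6 groups. Alternatives were other scalings, no filter, DESeq2 1.42.0, limma 3.58.1 on log2(TPM + 1) and log2(TPM + 0.1) at a mean TPM of at least 0.5, other sample sets, the smooth muscle mean as covariate, and each library left out. The test was tried on simulated data. The neuron, glia and marker means are over log2(CPM + 1). Correlations used permutation tests and were added after the data were seen. The members and lists were chosen with earlier results of these data known. All 33 genes are accounted for. A gene is given its level in each group and its fold change where called, and of other lists up to 3 called genes with the smallest p are named. Upstream windows are from RefSeq, GRCm38.p6, and exons and gene positions from GENCODE on GRCm38. Whole-transcript depth limits the precision of genes under 1 CPM.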

Additional observations from a re-analysis of the deposited data

Results flagged for a closer look

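For 21 gene and group pairs, 1 library stood apart from the rest of its group by Dixon's test at the 95% level, in groups of 5 to 10 libraries. Chance flags about 1 in 20 groups, and genes of a library are not independent. Knockout vehicle replicate 3 was the highest of its group for Sox10 at 3.76 CPM (the others ran over 0.0393 to 1.07). 10 mg/kg replicate 3 was the highest of its group for Sox10 at 2.14 CPM (the others ran over 0 to 0.253) and Cartpt at 0.183 CPM (the other libraries were all at 0). D77 vehicle replicate 3 was the lowest of its group for Sox10 at 0.198 CPM (the others ran over 1.09 to 1.34) and Uchl1 at 3.20 CPM (the others ran over 7.57 to 9.71). D77 vehicle replicate 3 was also the lowest of its group for Stmn2 at 2.29 CPM (the others ran over 5.39 to 7.12) and Nefm at 1.23 CPM (the others ran over 2.18 to 2.55). D77 vehicle replicate 3 was also the lowest of its group for Hand2 at 2.69 CPM (the others ran over 7.64 to 11.02) and Gfra1 at 0.316 CPM (the others ran over 1.59 to 2.29). Wild type replicate 3 was the lowest of its group for Erbb3 at 401 CPM (the others ran over 497 to 585). Wild type replicate 4 was the highest of its group for Foxd3 at 2.80 CPM (the others ran over 0.469 to 1.14). 10 mg/kg replicate 5 was the highest of its group for Foxd3 at 0.632 CPM (the others ran over 0 to 0.209). Anti-p40 replicate 2 was the highest of its group for Elavl4 at 6.57 CPM (the others ran over 3.13 to 3.66) and Syt1 at 14.2 CPM (the others ran over 7.63 to 9.05). Anti-p40 replicate 2 was also the highest of its group for Scg2 at 27.5 CPM (the others ran over 16.0 to 18.7). Wild type replicate 8 was the lowest of its group for Prph at 12.7 CPM (the others ran over 20.9 to 29.0) and Nos1 at 13.0 CPM (the others ran over 25.8 to 43.2). Anti-p40 replicate 1 was the lowest of its group for Nefm at 2.48 CPM (the others ran over 4.96 to 6.37). Knockout vehicle replicate 2 was the highest of its group for Tac1 at 75.0 CPM (the others ran over 11.1 to 24.2). D77 vehicle replicate 4 was the highest of its group for Gal at 3.78 CPM (the others ran over 1.49 to 1.99). 10 mg/kg replicate 1 was the highest of its group for Npy at 1.66 CPM (the others ran over 0 to 0.522). The neuron mean log2(CPM + 1) was 1.86 in D77 vehicle replicate 3 and 3.45 in anti-p40 replicate 2, and the smooth muscle mean 6.94 and 9.55. Their part in these values was not tested.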

How the results depend on the processing

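With the smooth muscle mean as a covariate, genes called over the whole table came to 2058 in knockout vehicle against wild type, 3253 at 30 mg/kg, 1608 at 10 mg/kg, 202 with anti-p40 and 458 for the difference of effects. Of the neuron and glia genes 0, 0 and 1 were lower in the first 3, and 0 were higher and 0 lower with anti-p40. In knockout vehicle 0 further neural genes were lower. The smooth muscle markers make up the covariate, so that their own calls in these fits carry no information. Among genes called without the covariate, signs turned in knockout vehicle for Elavl3 (0.0245), Vip (0.12), Nefm (0.0179), Prph (0.0072), Penk (0.0326) and Scg2 (0.0849). At 10 mg/kg they turned for Vip (0.47), Prph (0.0090), Gfra1 (0.19), Snap25 (0.0029), Stmn2 (0.0276), Elavl4 (0.49), Uchl1 (0.18), Nos1 (0.14), Syp (0.0314), Syt1 (0.0013), Hand2 (0.0232), Penk (0.0418), Cdh19 (0.22) and Gap43 (0.26), and with anti-p40 for Syp (-0.0392). Among genes not called they turned for 9 of 11 in knockout vehicle, 13 of 31 at 30 mg/kg, 6 of 7 at 10 mg/kg and 5 of 15 with anti-p40. The cause was not tested. Fitting all 4 first-cohort groups gave 11 lower genes in knockout vehicle. Both limma fits on TPM gave 27, beside 6093 and 6110 lower over all genes. Further neural genes lower in knockout vehicle came to 7 with all 4 groups and 22 in each limma fit. At 30 mg/kg against wild type the lower genes came to 4 by total counts, 1 without a filter, 4 in DESeq2, 26 and 23 in limma and 17 with only those 2 groups. The limma fits called 6488 and 6234 of all genes lower there. DESeq2 called 3 genes at 30 mg/kg and 66 at 10 mg/kg against vehicle and 647 for the difference of effects, and limma 20 and 23 at 10 mg/kg. The lower call of Tac1 with anti-p40 was absent without a filter and in both limma fits, with 0 lower genes. The neuron less glia difference turned to 0.16 with log2(TPM + 0.1), an alternative chosen after seeing the data.

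Leaving out 1 library at a time gave between 7197 and 9102 genes in knockout vehicle against wild type, between 4930 and 6065 for 30 mg/kg, between 7594 and 8710 for 10 mg/kg and between 1637 and 2523 with anti-p40 (2745 with every library). Against vehicle it gave 0 at 30 mg/kg and between 1 and 18 at 10 mg/kg (18 without 10 mg/kg replicate 6, 8 without replicate 2), and for the difference of effects 167 (without D77 vehicle replicate 3) to 577 (without knockout vehicle replicate 2). Lower neuron and glia genes numbered between 15 and 28 in knockout vehicle, with 0 or 1 higher, between 1 and 4 for 30 mg/kg and between 24 and 28 for 10 mg/kg; with anti-p40 10 to 17 were higher and 0 to 1 lower. In knockout vehicle against wild type, lower smooth muscle markers came to 7 to 10 and lower further neural genes to 9 to 24. Calls held in every such fit for 15 of 21 genes in knockout vehicle, 1 of 2 at 30 mg/kg, 24 of 26 at 10 mg/kg and 10 of 17 with anti-p40. Total counts in place of TMM moved the split over all genes from 4147 higher and 3965 lower to 2767 and 5658 in knockout vehicle, for 30 mg/kg from 3398 and 2398 to 1785 and 5334, and for 10 mg/kg from 4169 and 4229 to 2484 and 6654, with medians of -0.16, -0.24 and -0.26. No paired analysis was possible because the labels hold no replicate number that ties libraries of different groups together. Genes under 1 CPM, such as Cartpt and Foxd3, rest on few reads.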

Other observations

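The knockout library whose labels disagreed on the dose of compound 13 had a neuron mean log2(CPM + 1) of 2.81, a glial mean of 2.50 and a smooth muscle mean of 8.401.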
